A study of Mus musculus with 7 samples.

Results

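A set of 7 genes of pancreatic-type digestive enzymes was followed in RNA from the gastric corpus, where the stomach makes its acid, in Atp4b-DTR mice. They were Cel, Cela1, Cpa1, Cpb1, Ctrb1, Pnlip and Clps, chosen by name, and each was read from the probe set annotated to that gene alone. Of these 7 genes, 6 were measured among 22180 genes in all, each by 1 probe set; Pnlip was not analysed here. Every mouse, the control included, carried the Atp4b-DTR transgene, in which the diphtheria toxin receptor sits in the acid-secreting parietal cells. Adult mice aged 8 to 12 weeks received 225 ng of diphtheria toxin per mouse, or saline, on 3 consecutive days. The corpus was taken 24, 36, 48 or 72 h after the last toxin dose, giving 1 array for saline, 1 each for 24 h and 36 h, and 2 each for 48 h and 72 h. The paired samples are described as independent, and the labels do not say whether an array came from 1 mouse or several.

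Acinar cells of the exocrine pancreas make these enzymes and store them in granules, and in the gut they act on dietary fat and protein. The fat-digesting group holds pancreatic lipase, its cofactor colipase (Clps) and the bile salt-activated carboxyl ester lipase (Cel), while the proteases are made as inactive precursors. In acinar cells the genes are driven by the PTF1 complex, formed by Ptf1a with Rbpjl and a common partner, which binds an E-box next to a TC-box. The chief cells of the stomach are also enzyme-secreting cells, known for pepsinogen and, in the mouse, gastric intrinsic factor.

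The 6 measured genes did not move as a group. Cel lay at least 2-fold below the saline array on each of the 6 toxin arrays, Cela1 was past 2-fold above it on both 72 h arrays and within 2-fold on the other toxin arrays, Clps was slightly lower on all toxin arrays, and Cpa1, Cpb1 and Ctrb1 stayed within 0.41 log2 units over all 7 arrays. A span of at most 0.5, as in these 3 genes, was seen in 65.0% of all genes. On each toxin array 2 or 3 of the 6 lay above saline and 3 or 4 below it. These counts include Cpa1 and Cpb1, which were dim on every array, so that a movement of them could be missed. In limma no gene passed at an adjusted p under 0.05 in any comparison (0% of all genes called), against 1810 genes higher and 2565 lower at an unadjusted p under 0.05 at 48 h, so the values below describe sizes and directions and no single gene is said to have changed.

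Promoter sequences of these genes were searched for the letters of the E-box and the TC-box. The RefSeq promoter table (GRCm38.p6) held 5 of the 6 measured genes, and Clps was the exception. The 250 bases before the start were searched on both strands for the E-box letters CANCTG, for the TC-box letters TTTCCC, and for both joined by 4 bases as CANCTGNNNNTTTCCC, a form that contains the other motifs. The stretches below are shown because Cela1 and Ctrb1 hold the joined form and Cel holds both parts apart, with the matches in capitals (GGGAAA is TTTCCC on the other strand) and positions counted back from the start.
Cela1: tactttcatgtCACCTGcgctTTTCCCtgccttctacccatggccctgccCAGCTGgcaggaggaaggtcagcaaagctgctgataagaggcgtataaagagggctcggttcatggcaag
Ctrb1: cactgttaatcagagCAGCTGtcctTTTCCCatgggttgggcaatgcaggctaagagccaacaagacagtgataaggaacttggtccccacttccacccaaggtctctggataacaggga
Cel: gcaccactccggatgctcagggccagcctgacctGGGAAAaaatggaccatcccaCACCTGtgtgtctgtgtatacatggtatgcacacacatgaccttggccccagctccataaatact
The Cela1 stretch lies at chr15:100687921-100688040, the Ctrb1 stretch at chr8:111691111-111691230 and the Cel stretch at chr2:28563404-28563523, all on the minus strand. The joined form begins at -109 in Cela1 and at -205 in Ctrb1. It was found in 9 of 32851 promoters of the table (0.0274%), while CANCTG alone was in 44.8% and TTTCCC alone in 21.9%. One other gene of the acinar enzyme list, the trypsinogen gene Prss1, held it as well. Cpa1 held TTTCCC alone and Cpb1 held CANCTG alone. These are matches of letters and not measured binding sites, and the joined form was searched with a gap of 4 bases only. Among the measured members with the joined form, Cela1 was high at 72 h and Ctrb1 was flat, as the values below show.

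Clps, the colipase that anchors pancreatic lipase to fat droplets, gave a strong signal on every array. Its log2 signal was 12.96 on the saline array, 12.79 after 24 h, 12.37 after 36 h, 12.62 and 12.67 for the 48 h pair, and 12.67 and 12.55 for the 72 h pair. The saline array was the highest and the 36 h array the lowest, and both pairs lay below saline. The differences from saline were -0.17 at 24 h and -0.58 at 36 h, and the limma estimates were -0.31 ± 0.08 (SE) at 48 h and -0.35 ± 0.08 at 72 h, with adjusted p of 0.195 and 0.194. The highest signal of any gene was 13.27 to 13.46 on these arrays, and how far a signal this bright is compressed was not tested.

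Cel, which hydrolyses cholesteryl and retinyl esters and milk fat, showed the largest difference from saline among the 6. Its log2 signal was 7.58 on the saline array, 5.44 after 24 h, 4.86 after 36 h, 5.52 and 5.67 for the 48 h pair, and 5.63 and 5.19 for the 72 h pair. The 6 toxin arrays did not overlap with saline and lay 3.75-fold to 6.61-fold below it, with the 36 h array lowest. Cel was above the 95th percentile of olfactory receptor genes, which are not expected in the stomach, on all 7 arrays. It was above their 99th percentile, 5.37 to 5.57, on 4, saline among them. The toxin values were thus near that reference, so the fold sizes are uncertain. A difference of at least 2-fold below saline on all 6 toxin arrays was seen in 119 of 22180 genes (0.537%). The limma estimate was -1.99 ± 0.23 at 48 h (adjusted p = 0.121) and -2.17 ± 0.23 at 72 h (adjusted p = 0.146), against gaps of 0.16 and 0.44 within the 48 h and 72 h pairs. Between 72 h and 48 h the estimate was -0.19 ± 0.19 (adjusted p = 0.762 in limma), and the slope over the toxin arrays was 0.08 ± 0.16 log2 units per 24 h. Since saline is a single array, a trait of that array and a lasting response to toxin cannot be told apart for Cel. The saline and 24 h arrays shared a female pattern, with Xist at 8.13 and 9.17 against 2.70 to 3.27 on the other 5 arrays. On those, the Y-chromosome gene Eif2s3y was at 7.79 to 8.39, a male pattern, against 3.81 and 3.40 on saline and 24 h. For every gene here, sex and toxin both differ between saline and the 36 h, 48 h and 72 h arrays. The slope over the toxin arrays also mixes the sexes through the 24 h array. The part of sex in these values was not tested. Cel was at -2.14 from saline on the 24 h array, which had the female pattern as well. In whole tissue, fewer cells of a type and less RNA per cell cannot be told apart.

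**Figure D1:**
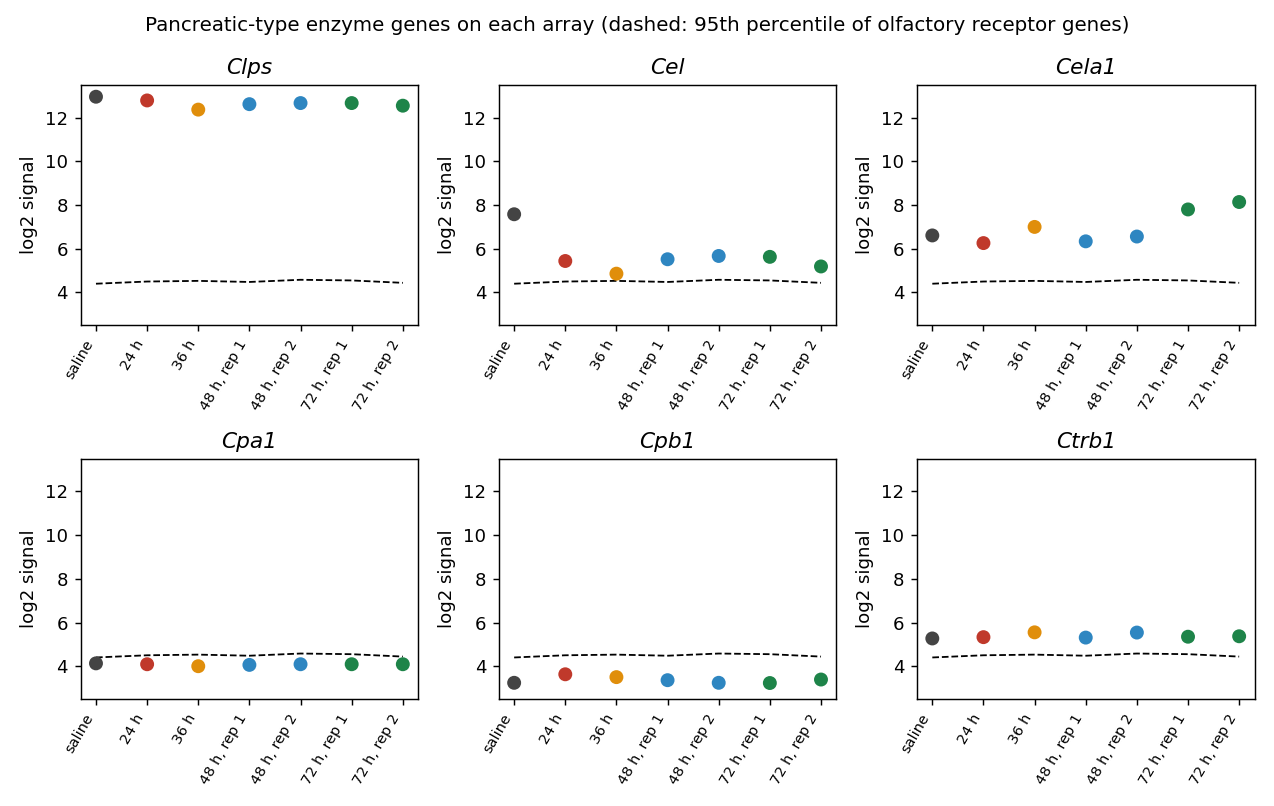
Log2 signal of the 6 measured genes on each of the 7 arrays, 1 point per array, coloured by group; the dashed line is the 95th percentile of 1105 olfactory receptor genes on the same array. Cel is high on the saline array alone (7.58), Cela1 is highest on the 72 h arrays (7.80 and 8.14), and Cpa1 and Cpb1 lie under the dashed line on every array.

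Cela1, a chymotrypsin-like elastase, had another time course. Its log2 signal was 6.61 on the saline array, 6.26 after 24 h, 7.0 after 36 h, 6.34 and 6.56 for the 48 h pair, and 7.80 and 8.14 for the 72 h pair. Both 72 h arrays stood above the other 5, and both 48 h arrays lay just below saline. The 72 h arrays were 2.29-fold and 2.89-fold above saline, while the 24 h, 36 h and 48 h arrays lay within 1.31-fold of it. The limma estimate for 72 h against 48 h was 1.52 ± 0.16, with adjusted p = 0.705. At an unadjusted p under 0.05 in that comparison 4.27% of all genes were higher, Cela1 among them. Against saline the limma estimate was 1.36 ± 0.20 at 72 h (adjusted p = 0.153) and -0.16 ± 0.20 at 48 h (adjusted p = 0.793). The 48 h and 72 h arrays had the male pattern and saline the female pattern, so these 48 h and 72 h estimates do not separate sex from toxin. The slope over the toxin arrays was 0.83 ± 0.22 per 24 h, with adjusted p = 0.454 in limma, and 4.22% of all genes had a positive slope at an unadjusted p under 0.05, Cela1 among them. Both 72 h arrays were above both 48 h arrays in 16.7% of all genes. Both exceeded the other 5 arrays in 5.37% of all genes. A narrower pattern, with both also at least 2-fold over both 48 h arrays, was seen in 4 genes (0.0180%). They were Cela1, Tnni3, Snord13 and 4930455G09Rik, the last 3 named after their values were seen. That pattern describes the values of Cela1 itself, so its small share is no test of that gene.

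Ctrb1, chymotrypsinogen B, was nearly level. Its log2 signal was 5.27 on the saline array, 5.33 after 24 h, 5.55 after 36 h, 5.31 and 5.54 for the 48 h pair, and 5.35 and 5.37 for the 72 h pair. All 6 toxin arrays were above saline, by 0.03 to 0.28, as in 20.2% of all genes, and the gap of 0.23 within the 48 h pair was nearly as large as the largest of these. The limma estimates were 0.15 ± 0.12 at 48 h and 0.09 ± 0.12 at 72 h, with adjusted p of 0.642 and 0.827.

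The carboxypeptidases, which trim amino acids from the end of peptides, were dim throughout. Cpa1, which favours aromatic and aliphatic ends, had a log2 signal of 4.13 on the saline array, 4.09 after 24 h, 4.0 after 36 h, 4.06 and 4.09 for the 48 h pair, and 4.09 on both arrays of 72 h. Cpb1, which favours basic ends, had 3.24 on the saline array, 3.63 after 24 h, 3.50 after 36 h, 3.36 and 3.24 for the 48 h pair, and 3.23 and 3.39 for the 72 h pair. Olfactory receptor genes served as a reference for genes not expected in the stomach, with a 95th percentile of 4.40 to 4.58 over the arrays, and both carboxypeptidases lay under it on all 7 arrays. The Ctrb1 signal was above that level on all 7 arrays but above the 99th percentile, 5.37 to 5.57, on 1. Probe sets differ in brightness for reasons other than RNA amount, so a dim signal sets no order between genes. The limma estimates for Cpa1 were -0.06 ± 0.05 at 48 h and -0.05 ± 0.05 at 72 h, and for Cpb1 they were 0.06 ± 0.11 and 0.07 ± 0.11. The adjusted p ranged from 0.636 to 0.860 for these 4 estimates.

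By direction, Cel, Cela1, Cpa1 and Clps had both 48 h arrays below saline (34.4% of all genes), and Ctrb1 and Cpb1 had both above (31.9%). At 72 h Cel, Cpa1 and Clps had both arrays below (33.9%), and Cela1 and Ctrb1 both above (34.2%). At an unadjusted p under 0.05 in limma, Cel and Clps were lower at 48 h and at 72 h, and Cela1 was higher at 72 h, where 11.6% and 10.0% of all genes were lower at 48 h and 72 h and 7.93% higher at 72 h. At 24 h and 36 h Cel alone among the 6 was at least 2-fold lower, as were 1.67% and 1.61% of all genes, and none was 2-fold higher (1.20% and 0.933%). The median difference of the 6 genes from saline lay between -0.17 and 0.06 on the toxin arrays, while that of all genes was 0.00 on each.

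Pairs of genes were compared over the 7 arrays to ask whether they moved together, with 15 pairs from the 6 measured genes. The correlation was positive in 5 pairs and negative in 10, and no pair passed after Benjamini-Hochberg adjustment over the 15. Cel and Clps gave r = 0.86 (exact permutation p = 0.00833, adjusted 0.107) and rho = 0.77 (exact permutation p = 0.0492, adjusted 0.246). Cpa1 and Clps gave r = 0.89 (exact permutation p = 0.0143, adjusted 0.107) and rho = 0.82 (exact permutation p = 0.0333, adjusted 0.246), although Cpa1 spanned 0.13 log2 units with 4 distinct values. Over the 6 toxin arrays r was 0.82 for Cel and Clps and 0.83 for Cpa1 and Clps. Without the 2 arrays farthest from the median of the first gene, r was 0.43 and 0.22, but the 5 arrays left spanned 0.49 of the 2.72 log2 units of Cel and 0.03 of the 0.13 of Cpa1, a range too narrow to show or refute either relation. Cel and Cela1 gave r = -0.27 (exact permutation p = 0.586, adjusted 0.748) and rho = -0.21 (exact permutation p = 0.662, adjusted 0.709).

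**Figure D2:**
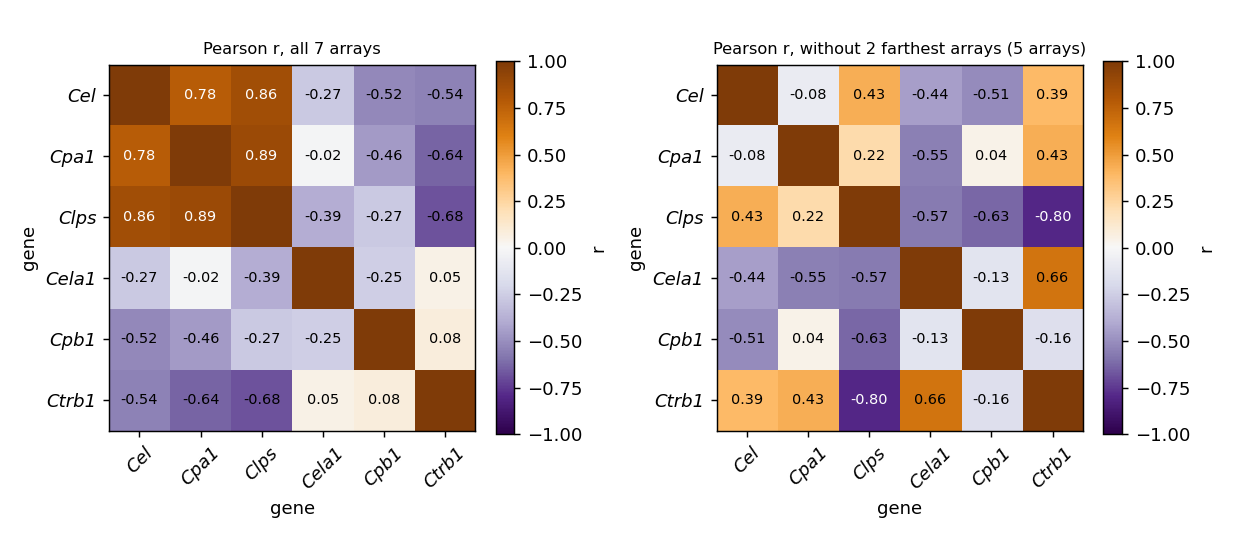
Pearson r for each pair of the 6 measured genes, over all 7 arrays (left) and without the 2 arrays farthest from the median of one gene of the pair (right, 5 arrays); colour runs from -1 to 1. Cel, Cpa1 and Clps have r of 0.78 to 0.89 on the left, and -0.08 to 0.43 on the right.

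The wider list of acinar enzymes held 29 genes, of which 20 were measured, the 6 included. In limma 0 of the 20 passed at 48 h or at 72 h. At an unadjusted p under 0.05, 2 were higher (8.16% of all genes) and 6 lower (11.6%) at 48 h, and 3 higher (7.93%) and 7 lower (10.0%) at 72 h, with a median difference of -0.16 and -0.15 against 0.00 for all genes. Their mean signal exceeded 4.50, the mean of the olfactory receptor 95th percentiles, in 11 genes and lay within it in 9. On the 36 h array 10 of the 20 genes had their lowest value, where 13.2% of all genes did, and 10 of the 20 lay below saline on all 6 toxin arrays, where 22.6% of all genes did. Of the 11 genes above the olfactory receptor level, 6 were lowest at 36 h and 7 lay below saline on all 6. That mean includes the saline array, which favours genes high there, and Rnase1, among the 7, passed the level through saline. The split by level is therefore no test, and the share among all genes above the same level was not taken. Of the 9 dim genes within it, 4 were lowest at 36 h and 3 lay below saline on all 6.

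The other fat-digesting genes of that list resembled Clps in having the 36 h array lowest and saline highest. Pnliprp1, a lipase-related protein, was at 8.82 on the saline array, 7.60 after 24 h, 6.18 after 36 h, 7.37 and 7.78 for the 48 h pair, and 7.90 and 7.39 for the 72 h pair. Pnliprp2, a galactolipase, was at -0.83 from saline after 24 h, -2.05 after 36 h, -0.06 and -0.76 for the 48 h pair, and -0.80 and -0.93 for the 72 h pair. Pla2g1b, the pancreatic phospholipase A2, ran from 12.27 at 36 h to 12.70 on the saline array. The 36 h array was the lowest for Clps, Cel, Pnliprp1, Pnliprp2 and Pla2g1b, at -2.72 to -0.43 from saline. It was also the lowest for the trypsinogens Try4, Prss1 and Try5, the amylase Amy2b and Cpa1, of which Try4 alone had a mean signal above the olfactory receptor level, and no difference between the fat-digesting genes and the others was tested. In limma the estimates for Pnliprp1 were -1.24 ± 0.32 at 48 h (adjusted p = 0.204) and -1.17 ± 0.32 at 72 h (adjusted p = 0.236).

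Among the proteases and other enzymes, those past 2-fold on some toxin array were Try4, Prss1 and Rnase1 beside Cela1. Try4, a trypsinogen, was at 8.81 on the saline array, 8.59 after 24 h and 6.62 after 36 h, then 7.31 and 7.53 for the 48 h pair and 8.04 and 7.42 for the 72 h pair. The trypsinogen genes are close copies of each other, so which copy the Try4 and Prss1 probe sets read is uncertain. Prss1 was at -1.33 to -0.62 from saline, at a mean signal within the olfactory receptor level. Rnase1, the pancreatic-type ribonuclease, was at 8.42 on the saline array and 4.96 on the second 72 h array. On the other 5 toxin arrays it was at 3.72 to 4.14, under the olfactory receptor 95th percentile, so the size of its difference there was not measured, and its mean exceeds that level through the saline array. Ctrl, the chymotrypsin-like protease, was 0.02 to 0.45 above saline, and Ctrc, chymotrypsin C, between -0.11 and 0.21.

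**Figure D3:**
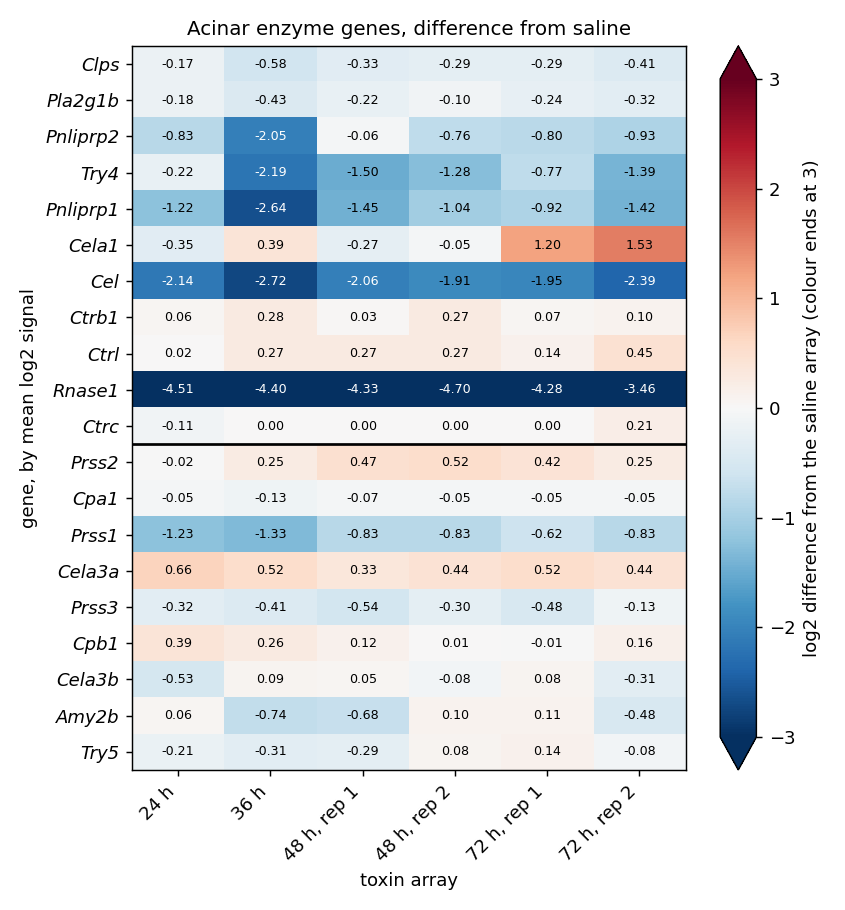
Log2 difference from the saline array for the 20 measured acinar enzyme genes (rows, ordered by mean signal) on the 6 toxin arrays (columns); the black line separates the 11 genes with a mean above the olfactory receptor level from the 9 within it. Blue is lower and red higher than saline; the 36 h array is the lowest of the 7 for 10 of the 20 genes, and Cela1 is red only in the 72 h columns and faintly at 36 h.

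Markers of pancreas and of neighbouring cells were set beside these values. Of the 15 measured acinar granule and secreted proteins that are not enzymes, 6 had a mean signal above the olfactory receptor level and 9 were under its 95th percentile on every array. The highest by mean were Tff2, a trefoil peptide also made by gastric mucous cells, at 11.15 to 12.38, Dmbt1 at 5.91 to 10.06, Klk1, a kallikrein, at 8.59 to 9.37, and Zg16, which goblet cells also make, at 3.34 to 8.27. Dmbt1 and Zg16 were lowest on saline, and above it on all 6 toxin arrays by 3.18 to 4.15 and 0.26 to 4.93. Zg16 was under the olfactory receptor 95th percentile on saline, so the size of its difference was not measured. Of the 15 genes, dim ones included, 7 lay above saline on all 6 toxin arrays (20.2% of all genes) and 2 below (22.6%). On some toxin array 4 were at least 2-fold higher and 1 lower, where 5.22% of all genes were 2-fold from saline. Gp2 and Cuzd1, membrane proteins of acinar granules, were at 2.97 to 3.20 and 3.41 to 3.72, while Sycn, the granule protein syncollin, was at 6.90 on the saline array and 4.42 to 6.83 on the toxin arrays. Of the 10 measured islet genes, 4 had a mean above that level, namely Mafa (5.93 to 6.36), Ppy (4.84 to 5.53), Pdx1 (4.78 to 5.49) and Gcg (4.66 to 5.50), and Ins2, the insulin gene, was at 2.40 to 2.93. None of the 10 was 2-fold from saline on any array, where 5.22% of all genes were on at least 1, and the log2 of their summed signal ran from 7.75 to 8.13. Of the 7 measured acinar regulators none was 2-fold from saline either. Ptf1a, the defining acinar factor, was at 4.15 to 4.79, above the olfactory receptor 95th percentile on 1 array. Rbpjl, its acinar partner, was at -0.60 to -0.30 from saline on the 6 toxin arrays, with its lowest value at 36 h. Bhlha15 was at -0.99 to -0.52 and Xbp1 at -0.97 to -0.57. Gata4 was at -0.20 to 0.10 from saline and Gata6 at -0.15 to -0.03. Nr5a2, at a mean signal within the olfactory receptor level, was at 0.06 to 0.42. Of the 7 regulators, 4 lay below saline on all 6 toxin arrays (22.6% of all genes) and 1 above it on all 6 (20.2%). The log2 of the summed signal of the 20 acinar enzymes was 14.10 on the saline array, 13.44 at 36 h and 13.65 to 13.83 on the other 5 toxin arrays. Clps and Pla2g1b held 83.4% of that sum on the saline array and 87.0% to 92.5% on the toxin arrays, and for the other 18 genes it was 11.51 on saline, 9.71 at 36 h and 10.53 to 10.82 on the rest. Such sums add signals of probe sets that differ in brightness for reasons other than RNA amount. The shares are therefore of signal and not of RNA, and the limit named for Clps applies to Pla2g1b as well. The part of carried-over pancreas in the enzyme values was not tested.

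Chief cell genes were read beside the fat-digesting genes. Cblif, gastric intrinsic factor, was at 12.36 on the saline array, 11.45 after 24 h, 10.52 after 36 h, 11.40 and 11.50 for the 48 h pair, and 11.35 and 11.17 for the 72 h pair. Chia1, an acidic chitinase, was at 12.72 on the saline array, 11.28 at 36 h and 11.66 to 12.11 on the others. Pgc, the pepsinogen C precursor, was at -0.19 from saline at 36 h and between -0.05 and 0.09 elsewhere, but it was the brightest gene on 6 of the 7 arrays, so that the limit named for Clps applies to it as well. Of the 10 measured chief cell genes, 7 lay below saline on all 6 toxin arrays (22.6% of all genes) and 6 were past 2-fold on some array (5.22%). Of these 6, 5 were lower, while Gkn3, a gastrokine, was above saline on all 6 toxin arrays, by 0.07 to 1.85. The log2 of their summed signal was 14.71 on saline, 13.86 at 36 h and 14.13 to 14.25 on the others. The list contains Cpb1, and it shares Bhlha15 with the acinar regulators. Bhlha15 and Lipf are both among the 7 below saline. Lipf was under the olfactory receptor 95th percentile on every array, at -0.15 to -0.01 from saline. The part of chief cell number in the enzyme values was not tested.

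One library, the 48 h array of replicate 2, stood apart in some liver genes. Alb, serum albumin, was at 9.60 there and at 4.49 to 5.49 on the other 6 arrays. Of the 7 liver genes, Alb, Ahsg and Fgb were 5.11, 1.60 and 1.87 above saline there. Apoa1 and Ttr were at -2.80 and -1.38 from saline, and Serpina1a and Cyp3a11 at 0.00 and 0.16. The list median of 7.12 on this array, against 4.49 to 5.49 on the others, was the value of Apoa1. The 6 enzyme genes differed by 0.03 to 0.23 between this array and the other 48 h array. Atp4b, the proton pump subunit that defines parietal cells of the corpus, was at 10.68 to 12.94 and Pgc at 13.18 to 13.46. Krt4, a keratin of the squamous forestomach, was at 4.21 for replicate 1 of 48 h and 4.12 for replicate 2 of 72 h, against 6.16 to 8.51 on the other 5, and Cel and Clps were within 0.44 and 0.12 of the partner array in both pairs. Of the 16 enterocyte genes of the small intestine, 12 had a mean above the olfactory receptor level, the highest being Anpep (9.84 to 10.62), Rbp2 (6.97 to 8.23), Vil1 (6.98 to 8.07) and Apoa4 (6.60 to 9.30), and the log2 of their summed signal was 10.99 to 11.42. Rbp2 and Vil1 were above saline on all 6 toxin arrays and Apoa4 below it on all 6, at -2.70 to -1.51. Sis, the sucrase, was at 2.73 to 2.82. The part of tissue sampling in the enzyme values was not tested.

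Genes with the time course most like Cel and Cela1, the members that spanned at least 1 log2 unit, were sought among 930 genes above the median signal with such a span. For Cel the highest r over the 7 arrays were those of Gask1b (0.99), Zfp229 (0.98), Sostdc1 (0.98), St3gal6 (0.98) and Cmss1 (0.98). All of them lay below saline on each toxin array, by less than Cel did. Against -2.72 to -1.91 for Cel, Sostdc1 was at -2.20 to -1.74 from saline and the others at -1.41 to -0.95. Over the 6 toxin arrays alone their r was 0.76 to 0.96. Gask1b was at 5.71 and St3gal6 at 7.45 on the 24 h array, both 48 h arrays and the first 72 h array. Their r over the toxin arrays thus rests on the 36 h and the second 72 h array. For Cela1 they were Cox4i1 (0.94), Mrpl20 (0.94), Mcrip2 (0.94), Tm4sf5 (0.92) and Ndufb7 (0.91), with r of 0.91 to 0.97 over the toxin arrays. Cox4i1 and Ndufb7 encode subunits of the respiratory chain and Mrpl20 a mitochondrial ribosomal protein. Their differences from saline at 72 h were smaller than those of Cela1, with Mrpl20 at 0.88 and 1.21. For Cel and Cela1 alike the genes were chosen by r over the 7 arrays. These include the 6 toxin arrays, so a high r over those 6 is no test.

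**Figure D4:**
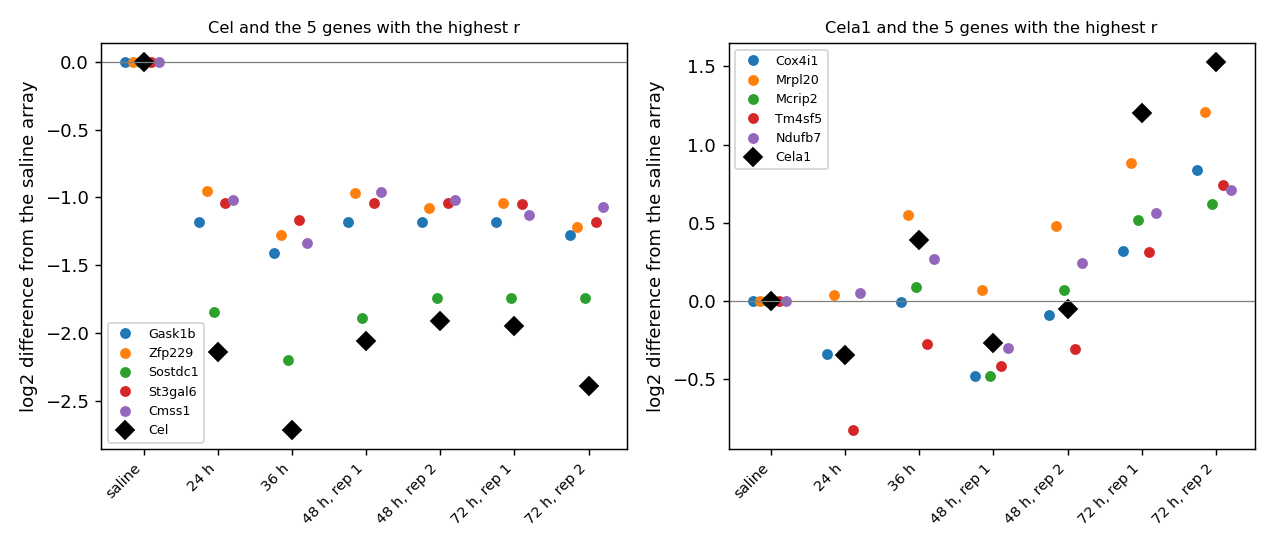
Log2 difference from the saline array for Cel (left) and Cela1 (right), as black diamonds, and for the 5 genes with the highest Pearson r to each over 7 arrays, as coloured points set side by side at each array. The genes beside Cel lie below saline on all toxin arrays, by less than Cel does, and those beside Cela1 are highest at 72 h.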

How the data were processed

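Total RNA of the corpus was labelled as biotinylated cDNA (Affymetrix WT Plus) and read on 1 array per sample, per the labels' protocols. The authors deposited log2 signal, and the submitters' processing notes name RMA and Partek; neither their versions nor the probes' genome build is stated there. RMA makes array distributions alike and often leaves equal values in dim genes. Values were used as deposited; 0 columns were left out. Of 41345 probe sets, 23521 had 1 gene, 1814 several and 16010 none; the brightest probe set per gene gave 22180 genes. Array signal has no depth, so the number of arrays limits precision.

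Tests used limma 3.58.1 (R 4.3.3; lmFit, eBayes, two-sided, Benjamini-Hochberg over all genes) on all 7 arrays. Degrees of freedom were 2 residual and 1.15 prior, with the single control taken to vary as the 48 h and 72 h pairs did, and 4 residual and 1.83 prior for the slope over the 6 toxin arrays. P-values measure only the spread between these arrays, which may be technical. Sex was not in the fits, and the 36 h, 48 h and 72 h arrays differ from the control in sex as well as toxin. At 24 h and 36 h the difference from the control was read by size alone, a gene being counted at 2-fold. Correlations used all 5040 orders of the 7 arrays, two-sided; 15 pairs were left without Pnlip. Genes were named by rule: the members, acinar enzymes and regulators past 2-fold, up to 4 genes per marker list, and the 5 most similar genes. Other named genes were chosen after their values were seen, Gp2, Cuzd1, Ins2, Sis, Gkn3, Alb and Sycn among them. The members and lists were chosen with earlier results of these data known. The pipeline was tested on simulated data.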

Additional observations from a re-analysis of the deposited data

Results flagged for a closer look

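Cela1 was singled out because both 48 h arrays lay below the saline array, at -0.27 and -0.05, and both 72 h arrays above it, at 1.20 and 1.53. The difference between 72 h and 48 h was 1.52 ± 0.16, and its adjusted p in limma was 0.705.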

How the results depend on the processing

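No member passed in any of the 232 fits of a member under an alternative, and the smallest adjusted p was 0.0543, for Cel at 48 h in limma. Cel and Cela1 kept their direction in these differences: Cel ran from -2.06 to -1.91 at 48 h and from -2.39 to -1.95 at 72 h, and Cela1 from 1.35 to 1.69 for 72 h against 48 h. The number of genes called, 0 in each comparison, became 12 at 48 h and 6 at 72 h with quantile normalisation again, and 77 and 13 with array medians subtracted; the cause was not tested. With 1 array left out at a time, values near 0 changed sign: for 72 h against 48 h Cel ran from -0.41 to 0.03, Cpb1 from -0.08 to 0.09, Ctrb1 from -0.18 to 0.05 and Clps from -0.10 to 0.02. For 72 h against saline Cpb1 ran from -0.01 to 0.16, and in the slope Cel ran from -0.04 to 0.21 and Clps from -0.08 to 0.09. The labels share replicate numbers without saying what they pair, and the gaps of the 48 h pair and of the 72 h pair had r = -0.13 across genes, which are not independent replicates. With the replicate number as a block, 0 genes were called for 72 h against 48 h, and with the numbers crossed, an alternative added after seeing the data, 0 as well. The counts of 10 acinar enzyme genes lowest at 36 h and of 10 below saline on all toxin arrays were also 10 with array medians subtracted and 10 without the 48 h array of replicate 2, both added after seeing the data. The counts at 24 h and 36 h stayed within 1.5 times in the settings tried.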

Other observations

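Sycn, the gene of syncollin, a protein on the inside of acinar granules, was chosen after its values were seen. Among the 15 measured acinar granule and secreted non-enzymes, 4 were at least 2-fold higher on some toxin array and Sycn alone was 2-fold lower. Its log2 signal was 6.90 on the saline array, 4.44 after 24 h, 4.78 after 36 h, 4.42 and 4.51 for the 48 h pair, and 5.46 and 6.83 for the 72 h pair. It lay under the olfactory receptor 95th percentile after 24 h and on both 48 h arrays, so the size of its difference there was not measured. The second 72 h array was at -0.08 from saline and the first at -1.44, so the arrays of that pair were further apart than those of Cela1, at 0.34, or Cel, at 0.44. The limma estimate at 72 h was -0.76 ± 0.67 (adjusted p = 0.690).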
